A study of Mus musculus with 15 samples.

Results

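Genes of resident macrophages, of an activating Fc receptor with its signalling adaptor, of the complement starter C1q and of class II antigen presentation were followed in kidney RNA of 15 mice. A set of 10 genes was named for this purpose by function: Csf1r, Adgre1, Cx3cr1, Cd68, Fcgr3, Tyrobp, C1qa, C1qb, H2-Aa and Cd74. The choice was made with earlier results of these data known, so the set is not independent of them. Of these, 9 had a probe set annotated to them alone, out of 22180 genes with such a probe set on the array. The only probe set of Cd74 was annotated to Cd74 and Mir5107 together, so Cd74 was not analysed here. The mice were 8 Grhl1-/- animals (knockout, replicates 8 to 15) and 7 Grhl1+/+ animals (wild type, replicates 1 to 7), all about 6 months old. Grhl1 is a transcription factor gene of the grainyhead family, whose members act in epithelia. Each array is taken as 1 animal, since the design counts mice. The sources used here do not give the strain, sex or litter, nor which part of the gene was deleted.

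Macrophages of the kidney lie in the interstitium around tubules and vessels, where they take up debris and immune complexes and present antigen. They depend on signalling through the receptor Csf1r, carry the adhesion G protein-coupled receptor encoded by Adgre1, a standard mouse macrophage marker, and in the kidney express the fractalkine receptor Cx3cr1 at a high level. Class II molecules display peptides to helper T cells, and their genes share a promoter architecture that includes an X2 element and a CCAAT sequence, known as the Y box. Many myeloid genes are bound by the ETS factor PU.1, whose sites hold a purine-rich core.

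Since members that vary together over samples are described below, the 250 bases before the annotated start are shown for C1qb and H2-Aa, the pair with the closest pattern, and for Cd68, the gene with the clearest difference between kidneys. The sequences are from RefSeq (GRCm38.p6), read 5′ to 3′ on the gene's own strand, which is the minus strand for all of them. C1qb lies at chr4:136886201-136886450, H2-Aa at chr17:34287824-34288073 and Cd68 at chr11:69666171-69666420. Capitals mark CCAAT, TGACGTCA and GAGGAA, each searched on both strands.
C1qb: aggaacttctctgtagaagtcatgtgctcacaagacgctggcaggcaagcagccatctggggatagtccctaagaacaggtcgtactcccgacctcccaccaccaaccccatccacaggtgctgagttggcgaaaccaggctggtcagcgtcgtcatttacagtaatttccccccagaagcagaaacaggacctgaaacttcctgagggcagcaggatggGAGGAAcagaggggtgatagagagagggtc
H2-Aa: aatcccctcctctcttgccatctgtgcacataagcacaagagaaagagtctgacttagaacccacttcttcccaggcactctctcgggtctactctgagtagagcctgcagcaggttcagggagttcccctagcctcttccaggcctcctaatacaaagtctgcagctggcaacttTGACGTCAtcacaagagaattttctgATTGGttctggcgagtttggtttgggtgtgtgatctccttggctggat
Cd68: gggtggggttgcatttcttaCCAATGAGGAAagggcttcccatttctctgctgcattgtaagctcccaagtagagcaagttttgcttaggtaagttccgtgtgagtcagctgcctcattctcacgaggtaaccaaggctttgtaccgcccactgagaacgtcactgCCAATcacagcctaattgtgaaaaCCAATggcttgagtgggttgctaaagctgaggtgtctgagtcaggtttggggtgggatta
The H2-Aa window held TGACGTCA from -74 to -67 and, read on the other strand, CCAAT from -48 to -44, counted from the annotated start. The C1qb window held GAGGAA from -30 to -25. The Cd68 window held CCAAT at 3 places, the first of which (-230 to -226) runs directly into a GAGGAA (-225 to -220) without overlap. Of 32851 promoter windows of this length, 33.8% held CCAAT, 23.3% held GAGGAA and 1.55% held TGACGTCA. Windows were at hand for 5 of the 10 genes, and CCAAT was present in Cd68, H2-Aa and Cx3cr1, GAGGAA in Fcgr3, Cd68 and C1qb, and TGACGTCA in H2-Aa. A match of letters is a description of the window, not a binding site.

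The unit is the log2 value from robust multi-array average (RMA), in which a step of 1 is a doubling of signal. Levels are not compared between genes, because each probe set has its own scale. In whole-kidney RNA, fewer cells of a type and less RNA per cell cannot be told apart. The mean of 6 kidney epithelial markers lay between 11.5 and 11.8 in every sample. Grhl1 read 4.40 to 4.92 (median 4.73) in knockout kidneys and 4.96 to 5.25 (median 5.05) in wild-type kidneys, and did not overlap (difference -0.38, SE 0.07, limma adjusted p = 0.113). Whether its probes lie in the deleted part is not known here. Some samples stood apart by transcripts that cross the genotypes. Adrenal cortex markers were high in 6 samples, 4 knockout and 2 wild type (list means 7.04 to 9.29, against 4.56 to 4.93 in the other 9). Liver markers were high in 3 samples, 1 knockout and 2 wild type (8.90 to 10.5, against 7.00 to 7.27). Y-linked transcripts were low in 5 samples, knockout replicates 13, 14 and 15 and wild-type replicates 6 and 7 (means of 3 genes 3.96 to 4.26), where Xist read 11.4 to 11.6, and high in the other 10 (8.37 to 8.68), where Xist read 3.60 to 4.29.

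The genotype comparison asks whether these genes differ in the kidney when Grhl1 is lost. None of the 9 measured genes passed in limma across 23521 probe sets at a Benjamini-Hochberg adjusted p under 0.05, where 3 probe sets (0.0128%) did, 0.0085% lower and 0.00425% higher. Each of the 9 differences, knockout minus wild type, was below 0, with a median of -0.06, while 45.4% of all probe sets lay below 0 and their median was 0.01. The 9 genes were not independent of each other, as described below, so the shared sign was not 9 separate observations. At an unadjusted p under 0.05 the count was 1 of 9, Fcgr3, where 5.55% of all probe sets met that mark and 2.06% met it with a lower level. With the Y-linked class as a covariate, Fcgr3 (-0.20), Tyrobp (-0.23) and Cd68 (-0.14) met it. Their unadjusted limma p was 0.0395, 0.0181 and 0.00893, and their limma adjusted p was 0.546, 0.446 and 0.374. The share of all probe sets that met the mark in that fit was not counted. The 5.55% above belongs to the fit without the covariate, so this count has no background beside it.

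**Figure D1:**
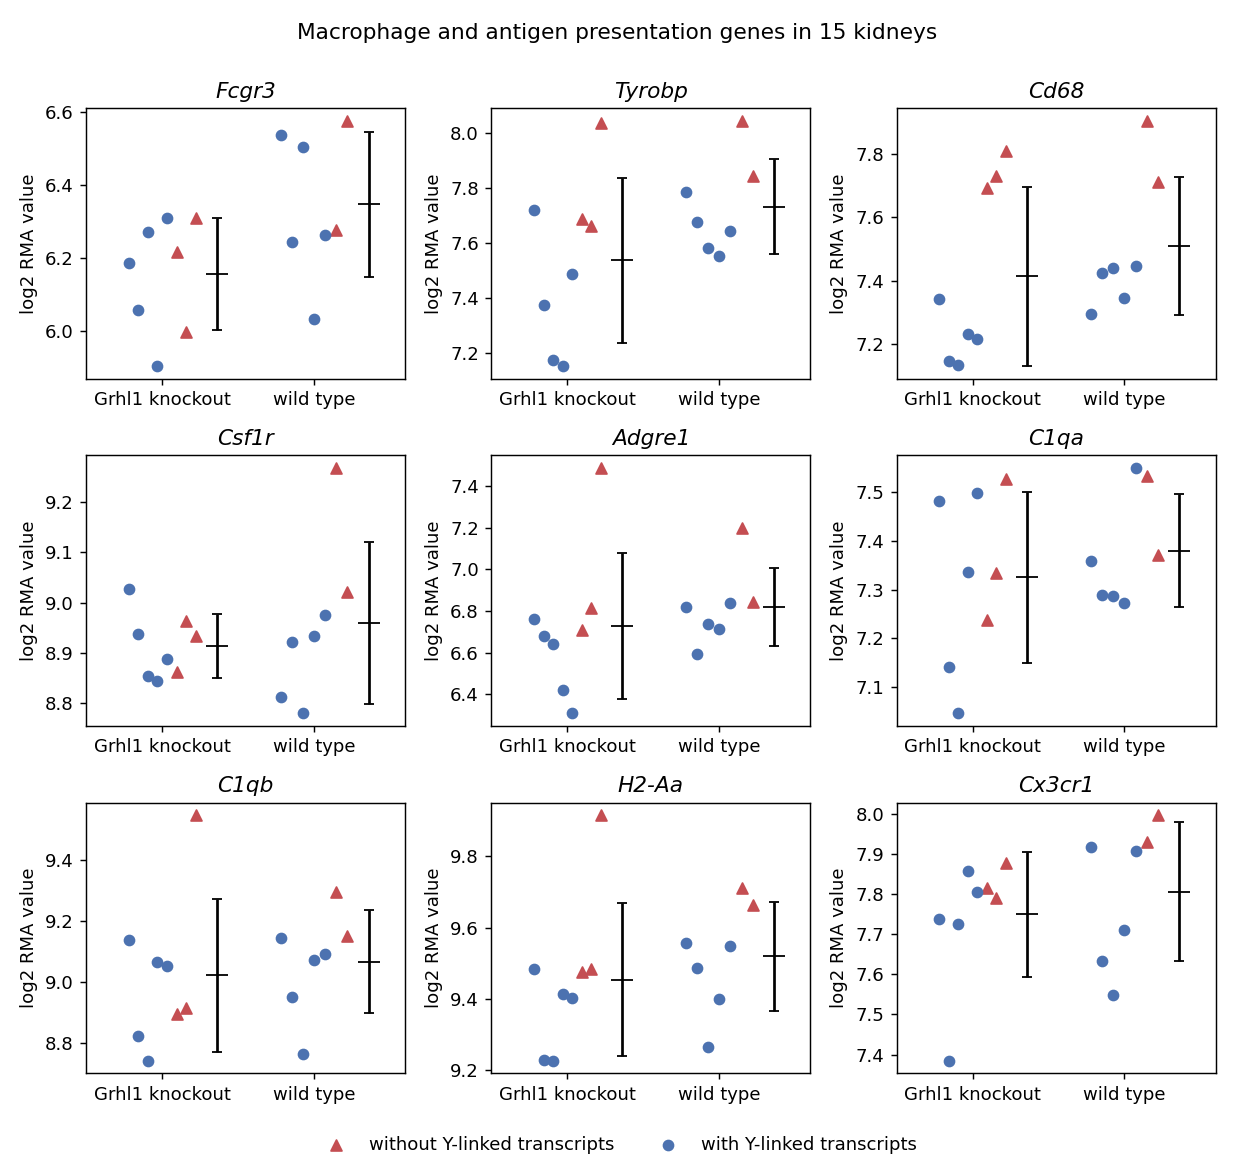
Log2 RMA value (vertical axis) of each of the 9 genes in 8 Grhl1 knockout kidneys (left) and 7 wild-type kidneys (right), 1 point per mouse. Triangles are the 5 samples without Y-linked transcripts and circles the 10 with them, and the bar beside each group is the mean ± SD. The genotypes overlap in every panel, and in Cd68 all triangles (7.69 to 7.90) lie above all circles (7.14 to 7.45).

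Among the genes of macrophage identity, Csf1r, the receptor for CSF1 and IL-34, read 8.84 to 9.03 (median 8.91) in knockout kidneys and 8.78 to 9.27 (median 8.93) in wild-type kidneys. The knockout range lay inside the wild-type range, whose top was wild-type replicate 6. The difference was -0.05 (SE 0.06, 95% interval -0.18 to 0.09, limma adjusted p = 0.997), and with 1 sample left out it lay between -0.07, when wild-type replicate 3 was dropped, and 0.01, when wild-type replicate 6 was. It was 0.03 in the 10 samples with Y-linked transcripts. Adgre1 read 6.31 to 7.49 (median 6.69) in knockout kidneys and 6.59 to 7.20 (median 6.82) in wild-type kidneys. Here the wild-type range lay inside the knockout range, with knockout replicate 15 at the top and knockout replicate 12 at the bottom. The difference was -0.09 (SE 0.14, interval -0.39 to 0.20, limma adjusted p = 0.997), from -0.20 (without knockout replicate 15) to -0.03 (without wild-type replicate 6) with 1 sample left out, and 0.05 without the 6 samples with adrenal transcripts.

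Cx3cr1, the receptor for fractalkine, read 7.38 to 7.88 (median 7.80) in knockout kidneys and 7.55 to 8.00 (median 7.91) in wild-type kidneys. Its lowest value was that of knockout replicate 9, and the groups otherwise overlapped. The difference was -0.06 (SE 0.08, interval -0.23 to 0.12, limma adjusted p = 0.997), -0.20 without the samples with adrenal transcripts, and from -0.10 (without wild-type replicate 3) to -0.0049 (without knockout replicate 9) with 1 sample left out. Cd68, a glycoprotein of macrophage lysosomes, read 7.14 to 7.81 (median 7.29) in knockout kidneys and 7.30 to 7.90 (median 7.44) in wild-type kidneys. Both groups were split in 2, with the samples without Y-linked transcripts on top. The difference was -0.10 (SE 0.12, interval -0.36 to 0.16, limma adjusted p = 0.997), -0.18 in mice with Y-linked transcripts and -0.06 in mice without them, and from -0.15 (without knockout replicate 15) to -0.03 (without wild-type replicate 6) with 1 sample left out.

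Fcgr3 encodes the activating receptor FcγRIII for IgG, and Tyrobp encodes DAP12, a signalling adaptor that carries activation signals for several myeloid receptors. Fcgr3 read 5.90 to 6.31 (median 6.20) in knockout kidneys and 6.03 to 6.58 (median 6.28) in wild-type kidneys. The groups overlapped between 6.03 and 6.31, with 3 wild-type kidneys (replicates 1, 3 and 7) above every knockout kidney. Knockout replicates 11 and 14 lay below every wild-type kidney. The difference was -0.19 (SE 0.09, interval -0.37 to -0.01, 0.88-fold), the exact two-sided permutation p over 6435 splits was 0.0586, and the limma adjusted p was 0.894. Fcgr3 shares sequence with other Fc receptor genes, and whether its probes also detect those was not tested. Each of 3 relatives had a probe set of its own, and the differences were 0.06 for Fcgr2b, an inhibitory receptor, -0.05 for Fcgr4 and -0.02 for Fcgr1 (limma adjusted p = 0.979, 0.997 and 0.997).

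Tyrobp read 7.15 to 8.04 (median 7.57) in knockout kidneys and 7.55 to 8.05 (median 7.68) in wild-type kidneys. The tops of the groups were alike, and 4 knockout kidneys (replicates 9 to 12) lay below every wild-type kidney. The difference was -0.20 (SE 0.12, interval -0.45 to 0.06, 0.87-fold, exact permutation p = 0.154, limma adjusted p = 0.973). Of these 4 kidneys, replicates 10, 11 and 12 held adrenal transcripts, and without all samples of that kind the difference was -0.08. The part of the adrenal tissue in this value was not tested.

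C1qa and C1qb encode chains of C1q, the complement protein that binds antibody complexes and dying cells, and which tissue macrophages produce. C1qa read 7.05 to 7.53 (median 7.34) in knockout kidneys and 7.27 to 7.55 (median 7.36) in wild-type kidneys, and C1qb read 8.74 to 9.55 (median 8.98) in knockout kidneys and 8.77 to 9.30 (median 9.09) in wild-type kidneys. The 2 lowest C1qa values were those of knockout replicates 9 and 10. In C1qb the bottoms of the groups were alike, and knockout replicate 15 lay above every wild-type kidney. The other knockout kidneys reached 9.14 (replicate 8). The differences were -0.05 (SE 0.08) for C1qa and -0.04 (SE 0.11) for C1qb, with intervals of -0.22 to 0.11 and -0.27 to 0.18 (limma adjusted p = 0.997 for each). With 1 sample left out they ran from -0.08 to -0.02 for C1qa and from -0.12 to -0.0049 for C1qb, in each gene without knockout replicate 15 at the low end and without knockout replicate 10 at the high end. C1qc, the third chain gene, which lies between C1qa and C1qb on chromosome 4, differed by -0.03 (SE 0.11, limma adjusted p = 0.997).

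H2-Aa encodes the alpha chain of the class II molecule I-A. It read 9.23 to 9.92 (median 9.45) in knockout kidneys and 9.27 to 9.71 (median 9.55) in wild-type kidneys, with knockout replicate 15 far above the other knockout kidneys. The difference was -0.06 (SE 0.09, interval -0.26 to 0.13, limma adjusted p = 0.997), and with 1 sample left out it lay between -0.13, when knockout replicate 15 was dropped, and -0.03, when knockout replicate 10 was. Its gene neighbours H2-Ab1, which encodes the beta chain of I-A, and H2-Eb1, the beta chain of I-E, differed by -0.04 and -0.06 (limma adjusted p = 0.997 each). Of 14 further genes of class II presentation 0 passed, 10 differed below 0 and 4 above, and the median was -0.05. The 2 with the smallest unadjusted p were H2-Oa (-0.11), part of a regulator of peptide loading, and the costimulatory ligand gene Cd80 (-0.15), with limma adjusted p = 0.967 each. Ciita, the master regulator of class II transcription, differed by -0.14 (limma adjusted p = 0.973).

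Related lists showed no call for genotype either. Of 25 measured further macrophage and myeloid genes, 18 differed below 0 and 7 above (median -0.05), of 10 class I presentation genes 6 and 4 (median -0.01), and of 9 further complement genes 8 and 1 (median -0.08). The complement gene with the smallest unadjusted p was C4b (-0.44, SE 0.24, limma adjusted p = 0.949). Ly6c2, a marker of inflammatory monocytes, had the smallest unadjusted p of 6 monocyte genes and differed by -0.32 (SE 0.09, limma adjusted p = 0.552). The ligands of the receptors above differed by -0.06 for Csf1, -0.16 for Il34 and -0.02 for the fractalkine gene Cx3cl1 (limma adjusted p = 0.997 each).

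Of the lists of other immune cells 0 genes passed for genotype, and 9 of 9 B and plasma cell genes lay below 0 (median -0.25). Those with the smallest unadjusted p were Jchain (-0.996), the joining chain of secreted IgM and IgA, and Ighm (-1.20), the IgM heavy chain (limma adjusted p = 0.738 and 0.851). Their list mean was 6.15 to 7.43 in knockout kidneys and 6.47 to 7.43 in wild-type kidneys. Of the 6 genes of all leukocytes, 6 lay below 0 (median -0.10), with list means of 6.67 to 7.51 in knockout and 6.90 to 7.29 in wild-type kidneys. The counts below 0 were 9 of 10 for dendritic cells, 5 of 8 for T cells, 6 of 8 for NK cells, 4 of 7 for mast cells, 4 of 6 for monocytes and 5 of 10 for neutrophils. The part of these cells in the genotype differences was not tested.

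The kidneys without Y-linked transcripts were also set against those with them, a comparison added after the values had been seen. In a limma fit with genotype and this class as terms, Cd68, Tyrobp, Adgre1 and H2-Aa were higher in the 5 samples without Y-linked transcripts. This is 4 of 9 genes called higher and 0 lower, where 14.4% of all probe sets were called higher and 10.6% lower, 24.9% in all. All 9 differences lay above 0, with a median of 0.18 against -0.01 over all probe sets and with 47.6% of all probe sets above 0. At an unadjusted p under 0.05 the count was 5 of 9 higher, where 19% of all probe sets were.

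Cd68 read 7.69 to 7.90 in kidneys without Y-linked transcripts (the values being 7.69, 7.73 and 7.81 in knockout and 7.71 and 7.90 in wild type) and 7.14 to 7.45 in the 10 with them. It separated the classes without overlap over the samples of both genotypes together, as 11.5% of all probe sets did. The means were 7.77 ± 0.09 (SD, n = 5) without and 7.30 ± 0.12 (SD, n = 10) with Y-linked transcripts, a fitted difference of 0.48 (SE 0.05, 1.40-fold, limma adjusted p = 3.32e-06). The exact permutation p within genotypes was 0.00085, the smallest that the 1176 arrangements can give. The difference was 0.46 to 0.52 when any 1 sample was left out.

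In kidneys without Y-linked transcripts Tyrobp read 7.69, 7.66 and 8.04 (knockout) and 8.05 and 7.85 (wild type), against 7.15 to 7.79 (median 7.57) in the 10 with them. The means were 7.86 ± 0.18 (SD, n = 5) without and 7.52 ± 0.22 (SD, n = 10) with Y-linked transcripts, a difference of 0.36 (SE 0.09, limma adjusted p = 0.00799). Knockout replicate 15 and wild-type replicate 6 were on top. Adgre1 read 6.71, 6.82 and 7.49 (knockout) and 7.20 and 6.85 (wild type) without Y-linked transcripts, against 6.31 to 6.84 (median 6.70) with them (difference 0.37, SE 0.12, limma adjusted p = 0.0269). H2-Aa read 9.48, 9.48 and 9.92 (knockout) and 9.71 and 9.66 (wild type) without Y-linked transcripts, against 9.23 to 9.56 (median 9.41) with them (difference 0.26, SE 0.07, limma adjusted p = 0.0191). In these 3 genes the ranges of the classes overlapped, and each had an exact permutation p of 0.00340. The differences were smaller without knockout replicate 15. Without it Adgre1 differed by 0.24 and H2-Aa by 0.18, with limma adjusted p of 0.0576 and 0.0515, Tyrobp by 0.29 (limma adjusted p = 0.0271), and 2 of 9 genes passed. Adgre1 also lost its call without wild-type replicate 6 (0.34, limma adjusted p = 0.0854). Without the 6 samples with adrenal transcripts, of which 5 had Y-linked transcripts, Cd68 alone passed, while the differences were 0.26 for H2-Aa, 0.32 for Adgre1 and 0.29 for Tyrobp. Cd68 also was the one gene to pass within knockout kidneys (0.53, limma adjusted p = 0.000932), where Tyrobp differed by 0.41, Adgre1 by 0.44 and H2-Aa by 0.27. The same held within wild-type kidneys (Cd68 0.42, limma adjusted p = 0.0206), where Tyrobp differed by 0.30, Adgre1 by 0.28 and H2-Aa by 0.24. H2-Aa lost its call without the samples with liver transcripts (0.23, limma adjusted p = 0.0702) and with each array centred on its median (0.21, limma adjusted p = 0.0505).

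The other 5 genes did not pass. Differences, without minus with Y-linked transcripts, were 0.18 for C1qb, 0.17 for Cx3cr1, 0.12 for Csf1r, 0.08 for C1qa and 0.06 for Fcgr3 (limma adjusted p from 0.136 to 0.666). The difference between genotypes was also tested for dependence on this class. In limma 0 of 9 interaction terms passed, as 0 of 23521 probe sets did, and 1 of 9 (Csf1r, -0.25, limma adjusted p = 0.694) had an unadjusted p under 0.05, where 7.04% of all probe sets did.

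**Figure D2:**
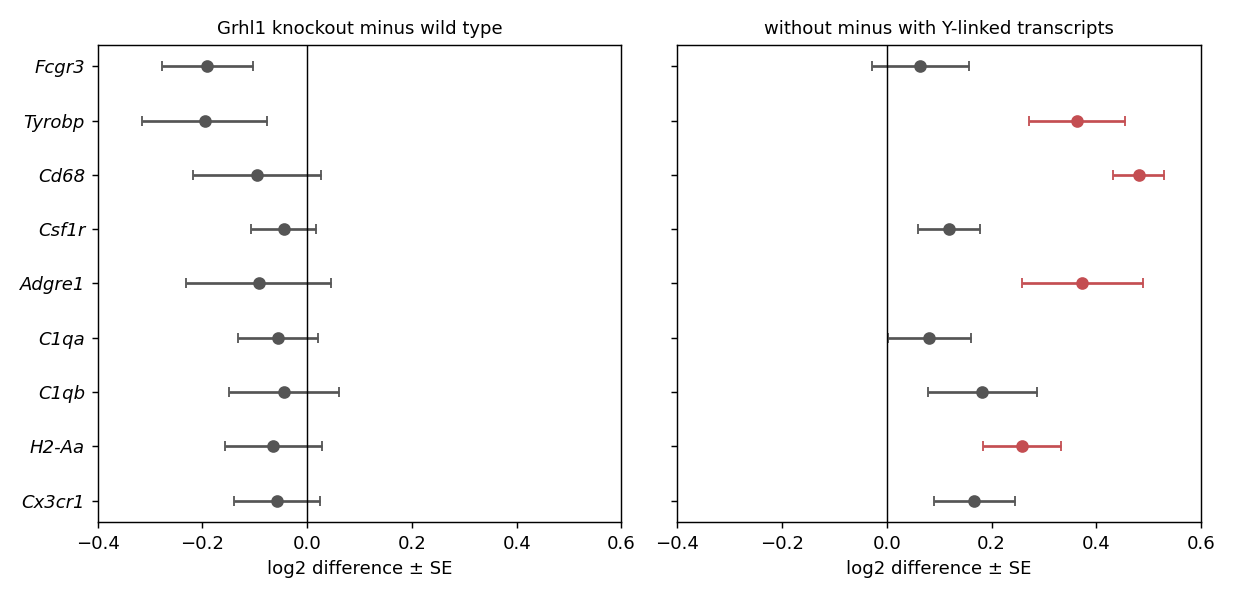
Log2 difference ± SE (horizontal axis) of the 9 genes, for Grhl1 knockout minus wild type (left) and for samples without minus with Y-linked transcripts (right). Red marks the 4 genes past the adjusted threshold, all in the right panel, from 0.26 for H2-Aa to 0.48 for Cd68; the left panel runs from -0.20 to -0.04.

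Counts for related lists are read against the 14.4% of all probe sets called higher and 10.6% called lower for this class. Of 25 further macrophage and myeloid genes, 8 were called higher and 1 lower, with a median of 0.25. They included Cd14, a co-receptor for bacterial lipopolysaccharide (0.50, limma adjusted p = 0.000929), and C1qc (0.33, limma adjusted p = 0.00815), and the lower one was Fcgr2b (-0.14, limma adjusted p = 0.00938). Of 14 class II genes 3 were called higher, a share near that of all probe sets, namely H2-Ab1 (0.31), H2-Eb1 (0.26) and the RFX subunit gene Rfxank (0.27), with limma adjusted p from 7.74e-05 to 0.0371. Of 10 class I genes 6 were called higher, among them the immunoproteasome gene Psmb10 (0.34), B2m (0.19) and the peptide transporter gene Tap1 (0.42). Of 9 further complement genes, a list that also holds C1qc, 5 were called higher, including C2 (0.40) and C1ra (0.43), and 1 lower, Cfb (-0.42, limma adjusted p = 6.02e-06). Il34, a ligand of Csf1r that tubular epithelium makes, was lower by far, at 6.81 in samples without and 8.08 in samples with Y-linked transcripts (difference -1.27, SE 0.11, limma adjusted p = 1.02e-06), while Csf1 differed by 0.18 (limma adjusted p = 0.145).

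Lists of other cells are given against the same shares of all probe sets, 14.4% higher and 10.6% lower. Of 8 T cell markers 3 were called higher, with list means of 5.76 to 6.46 without and 5.53 to 6.06 with Y-linked transcripts. Of 6 genes shared by all leukocytes 3 were called higher (list means 6.84 to 7.51 without, 6.67 to 7.21 with), of 7 mast cell genes 3 (4.63 to 4.92 without, 4.39 to 4.67 with), and of 7 fat genes 5 (8.84 to 9.32 without, 8.18 to 8.76 with). Of 6 kidney epithelial genes 3 were called higher. Their list mean, though narrow in range, did not overlap between the classes (11.625 to 11.821 without, 11.486 to 11.592 with). Of 9 B and plasma cell genes, 8 NK genes and 10 neutrophil genes 0 were called, and of 10 dendritic cell genes 2 were called higher, near the share of all probe sets. Of the neutrophil genes 4 of 10 differed above 0 (median -0.06). The part of these cells in the differences of the 9 genes was not tested.

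Over the 15 samples several of the 9 genes varied together. Knockout replicate 15 was the highest sample of all in Adgre1, C1qb and H2-Aa, wild-type replicate 6 in Tyrobp, Cd68 and Csf1r, and knockout replicate 10 the lowest in Cd68, C1qa, C1qb and H2-Aa. In knockout replicate 15 the T cell list mean (6.46) and the leukocyte list mean (7.51) were also the highest of all 15, and knockout replicate 10 held both liver and adrenal transcripts. Pairwise correlations were computed over deviations from the genotype mean for all 36 pairs of genes, with permutation p-values adjusted over the 36. The 8 pairs with Cd68, whose values formed 2 separate clusters, are given only within the 10 samples with Y-linked transcripts. Of the other 28 pairs, 27 had r above 0, 11 passed by Pearson's r and 11 by Spearman's rho, 9 of them by both, and the median r was 0.47. Tyrobp, Adgre1 and H2-Aa also differed by Y-linked class, so their r over 15 samples includes that difference. Within the 10 samples with Y-linked transcripts, 27 of all 36 pairs had r above 0 and 1 passed by r. The median r of the 9 genes with all 22171 other genes was 0.01. That median does not show how often single genes reach an r of 0.47. Of 22179 genes, Csf1r ranked 2963 for Tyrobp at r = 0.53 and 1150 for C1qa at r = 0.47.

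C1qb and H2-Aa were the closest pair, with r = 0.91 and rho = 0.81 (permutation p = 3e-05 and 0.00045, adjusted p = 0.00108 and 0.00600, n = 15). Without knockout replicate 15 and wild-type replicate 3, the samples farthest from the median of C1qb, r was 0.78. In the pairs below, the farthest samples were picked by the gene named first, unless stated. Over the 10 samples that had Y-linked transcripts r was 0.92 (permutation adjusted p = 0.0320). Of all 22179 other genes, H2-Aa was the one with the highest r with C1qb, and C1qb ranked 5 for H2-Aa. The other pairs that passed by both r and rho ranked lower, from 10 (C1qb for C1qa) to 623 (C1qb for Tyrobp). Cx3cr1 ranked 563 for H2-Aa, and Adgre1 ranked 168 for Tyrobp. In those pairs many genes outside the set had a higher r. The genes lie on chromosomes 4 and 17, and the windows printed above share none of the 3 letter strings searched.

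C1qa correlated with C1qb (r = 0.78, rho = 0.76, permutation adjusted p = 0.00262 and 0.00756) and with H2-Aa (r = 0.71, rho = 0.65, permutation adjusted p = 0.00909 and 0.0324). Within the 10 samples with Y-linked transcripts, both had r = 0.77 (permutation adjusted p = 0.133 each), and without the 2 farthest samples r was 0.70 and 0.58. Cx3cr1 went with H2-Aa (r = 0.70, rho = 0.83, permutation adjusted p = 0.0121 and 0.00600), at 0.74 within the 10 samples (permutation adjusted p = 0.133). Without the 2 samples farthest from the median of H2-Aa, knockout replicate 15 and wild-type replicate 3, r was 0.73. Knockout replicate 9, far below the other knockout kidneys in Cx3cr1, was kept in that value. These 4 genes, C1qa, C1qb, H2-Aa and Cx3cr1, had r from 0.58 to 0.92 among themselves within the 10 samples, and 1 of their 6 pairs passed there.

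Tyrobp with H2-Aa had r = 0.85 over 15 samples (rho = 0.79, permutation adjusted p = 0.00168 and 0.00600), 0.68 without the 2 farthest samples and 0.55 within the 10 samples with Y-linked transcripts (permutation adjusted p = 0.384). Within those 10 samples Tyrobp had r = 0.59 with C1qa and 0.51 with C1qb. Adgre1 with H2-Aa had r = 0.76 and rho = 0.78 over 15 samples (permutation adjusted p = 0.00940 and 0.00600) and r = 0.56 without the 2 farthest samples. Its r was -0.04 within the 10 (permutation adjusted p = 0.954), and 0.56 over 15 samples with the means of the Y-linked classes removed as well. Adgre1 with Tyrobp had r = 0.79 and rho = 0.78 over 15 samples (permutation adjusted p = 0.00262 and 0.00600). For this pair r was 0.51 without the 2 samples farthest from the median of Tyrobp. It was 0.30 within the 10 (permutation adjusted p = 0.698) and 0.59 with the class means removed as well. The pairs with Cd68 had r from -0.06 to 0.64 within the 10 samples, and 0 of 8 passed. None of the pairs of Csf1r with a gene other than Cd68 passed by r, and by rho Csf1r with Adgre1 did (rho = 0.65, permutation adjusted p = 0.0324). Fcgr3 passed with none of the 8 others, with r from -0.20 with Csf1r to 0.34 with Tyrobp.

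**Figure D3:**
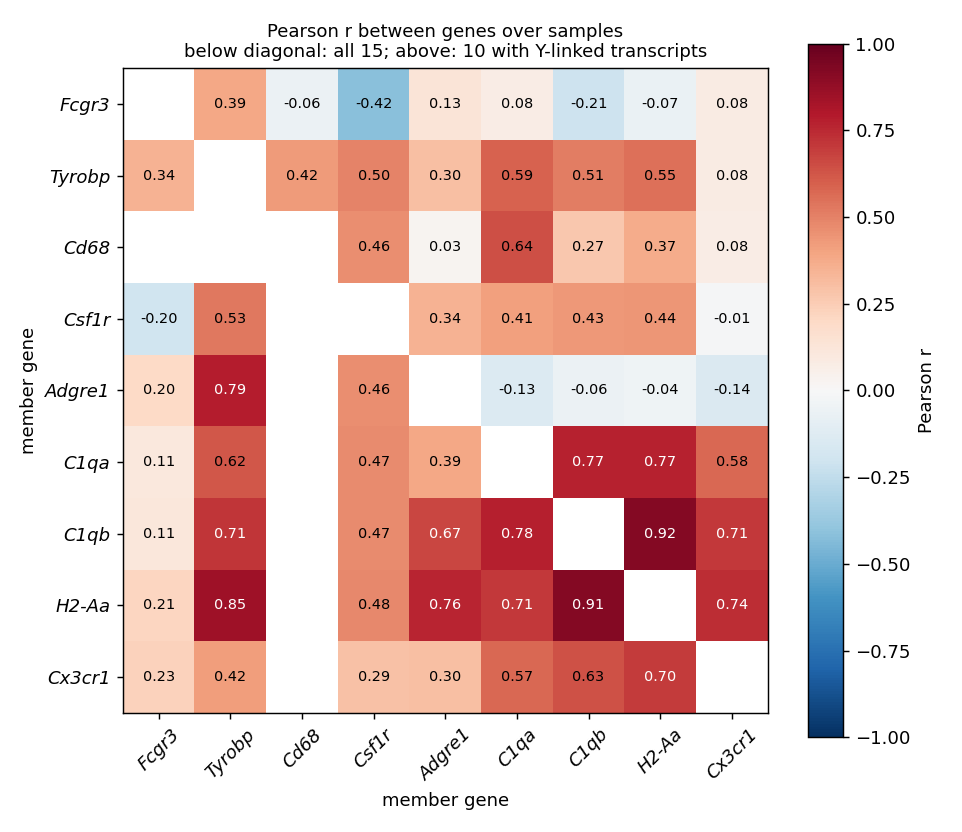
Pearson r between pairs of the 9 genes over deviations from the genotype mean, coloured from -1 (blue) to 1 (red), over all 15 samples below the diagonal and over the 10 samples with Y-linked transcripts above it. Cd68 is left blank below the diagonal because its values form 2 clusters; the block of C1qa, C1qb, H2-Aa and Cx3cr1 lies between 0.58 and 0.92 above the diagonal, and Adgre1 with H2-Aa is at 0.76 below and -0.04 above.

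**Figure D4:**
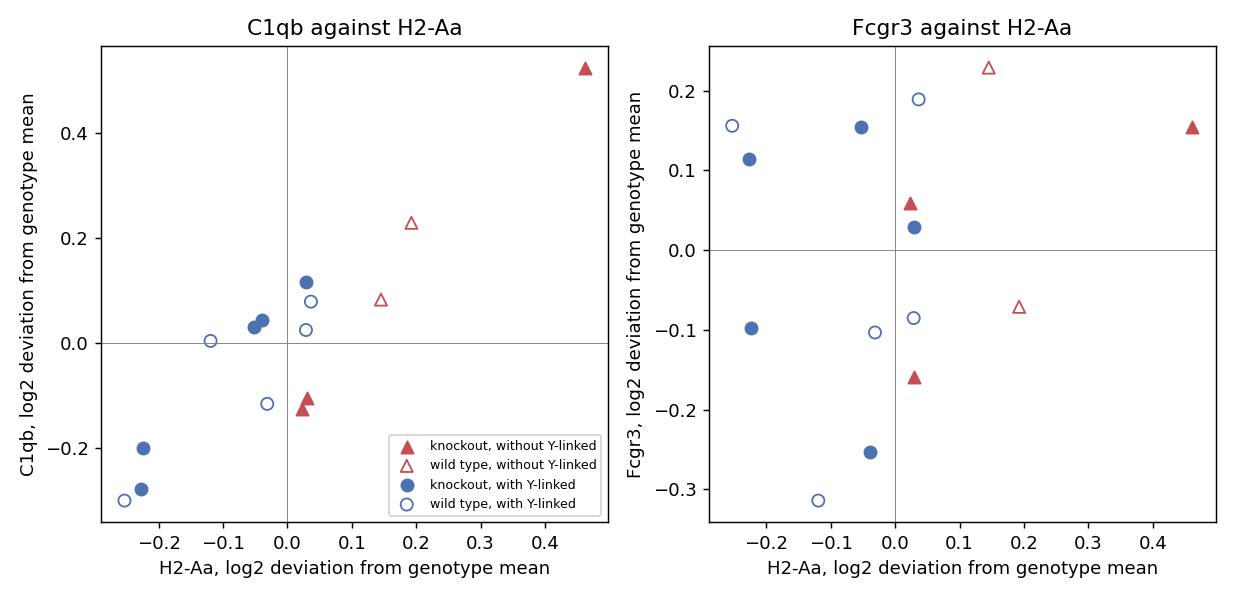
Log2 deviation from the genotype mean of C1qb (left) and Fcgr3 (right) against that of H2-Aa, 1 point per mouse; filled symbols are knockout, open symbols wild type, triangles samples without and circles samples with Y-linked transcripts. C1qb follows H2-Aa (r = 0.91) with knockout replicate 15 at the upper right, and Fcgr3 does not (r = 0.21).

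Partner genes from the same complexes and pathways were set against these genes in 14 further pairs. H2-Aa correlated with H2-Eb1 (r = 0.90, rho = 0.88, permutation adjusted p = 0.000420 and 0.00140 over the 14), at 0.87 without the 2 farthest samples and 0.54 within the 10 samples with Y-linked transcripts. With H2-Ab1 its r was 0.74 over 15 samples (permutation adjusted p = 0.0166, rho = 0.57 with adjusted p = 0.104) and -0.05 within the 10. With Ciita its r was 0.16 (permutation adjusted p = 0.613). Tyrobp correlated with Fcer1g, which encodes the Fc receptor gamma chain, an adaptor of the same kind (r = 0.83, rho = 0.77, permutation adjusted p = 0.000840 and 0.00945, 0.64 without the 2 farthest samples and 0.61 within the 10). Fcgr3, whose protein needs that gamma chain for its surface expression, had r = 0.33 with Fcer1g (permutation adjusted p = 0.406). C1qb with C1qc had r = 0.69 (permutation adjusted p = 0.0179, rho = 0.60 with adjusted p = 0.0960) and 0.20 within the 10. Within the 10 samples 0 of the 14 pairs passed.

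The 10 genes whose pattern was most like the mean of the standardised values of the 9, over deviations from the genotype mean in 15 samples, had r from 0.88 to 0.97. Fcer1g came first (r = 0.97, and 0.91 within the 10 samples with Y-linked transcripts), then the C-type lectin gene Clec4a3 (0.96 and 0.93) and Tapbp, which encodes tapasin of the class I loading complex (0.93 and 0.85). Sting1, a sensor of cyclic dinucleotides (0.92 and 0.81), and Nckap1l, a regulator of actin in blood cells (0.91 and 0.78), followed. Lgals3bp (0.90 and 0.80), Deaf1 (0.90 and 0.62) and Cybb, the catalytic subunit of the phagocyte NADPH oxidase (0.89 and 0.61), were next. Magee1 (0.89 and 0.65) and Ctns, the lysosomal cystine transporter (0.88 and 0.73), were last of the 10. The genotype differences of the 10 genes ranged from -0.10 for Fcer1g to 0.04 for Ctns, and none passed in limma (adjusted p from 0.989 to 0.999). All 10 were higher in the samples without Y-linked transcripts, by 0.15 to 0.47 (limma adjusted p from 0.00112 to 0.0413). They had been picked for likeness to the mean of the 9 genes, all of which were higher in those samples. The choice itself favoured that direction, so it is not a separate result.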

How the data were processed

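Total kidney RNA of 15 mice was measured on 1-colour arrays. The authors deposited log2 values, normalized with RMA per the submitters' processing notes. RMA equalises the arrays' distributions, so a shift shared by most transcripts is lost, and it compresses differences of dim probe sets. A version and a genome build are not given in the sources used here. Precision is limited by how many arrays there are.

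Of 41345 probe sets, 23521 were annotated to exactly 1 gene symbol, 1814 to several, and 16010 were unnamed here. Symbols were updated by Entrez ID to RefSeq (GRCm38.p6) for 23328 of them. The brightest probe set stood for a gene. The genotype fit used limma 3.58.1 in R 4.3.3 (lmFit, eBayes, two-sided, no covariate, no filter), was tested on simulated data, and intervals are its 95% intervals. Single genes were tested by exact permutation over samples, and pairs with 100000 resamples. Samples counted as holding liver or adrenal transcripts where the list mean exceeded the median by 1, and as lacking Y-linked transcripts below the midpoint of that list's range. The text could name the 9 genes, up to 3 called genes of a list or the 2 with the smallest p, and the 10 nearest in pattern; other named genes were chosen after their values were seen. Members and lists were all chosen with earlier results of these data known. Alternatives covered scaling, variance model, array weights, dim probe sets, Y-linked class, carried tissue and each left-out sample.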

Additional observations from a re-analysis of the deposited data

Results flagged for a closer look

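In 4 of the 18 sets of values that 9 genes and 2 genotypes give, 1 sample lay far from the others by Dixon's test, which chance alone does in about 1 of 20 sets. Knockout replicate 15 was far above the other knockout kidneys in Adgre1 (7.49) and H2-Aa (9.92). Wild-type replicate 6 was far above the other wild-type kidneys in Adgre1 (7.20). Knockout replicate 9 was far below the other knockout kidneys in Cx3cr1 (7.38).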

How the results depend on the processing

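For genotype, 0 of 9 genes passed under every alternative run, and the median difference, -0.06, ranged from -0.13 to -0.03 over the fits that left out 1 sample and from -0.10 to -0.05 over the others. Csf1r turned to 0.0253 in the samples with Y-linked transcripts and to 0.00631 without wild-type replicate 6 (range over left-out samples -0.075 to 0.0063), and Adgre1 to 0.0540 without samples with adrenal transcripts. The causes were not tested. For the Y-linked class, 4 of 9 genes passed, and 1 passed in knockout samples alone, in wild-type samples alone and without samples with adrenal transcripts, fits that hold fewer samples, and 2 to 4 passed when 1 sample was left out. Cd68 passed in each of these fits. The median r over the 36 pairs, Cd68 included, was 0.50, and 0.356 in the samples with Y-linked transcripts, 0.641 without samples with adrenal transcripts, 0.38 without knockout replicate 15 and wild-type replicate 6 (added after seeing the data), and 0.42 to 0.56 with 1 sample left out. No paired analysis was run, because the sources used here give no litter or pairing of the mice.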
